A study of Arabidopsis thaliana with 8 samples.

Results

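Seedlings of se and hyl1, mutants in partners of the nuclease DCL1, were set side by side through the 5′ ends of their MIRNA precursor fragments. The 4 libraries titled as se and hyl1 were taken from the 8 libraries of the series. Tags of 26 nt or more were kept, and their counts were summed by precursor and by 5′ end position. The assay, SPARE (Specific Parallel Analysis of RNA Ends), ligates an adapter to the 5′ ends of RNA and enriches precursor fragments with precursor-specific primers. The first group was homozygous mutant seedlings labelled Se -/-, and the second was labelled Hyl1 -/-, with 2 libraries each. Wild-type Col (2 libraries) served as a reference level, and fiery1 mutants (2 libraries) entered the shared estimate of spread. All plants were grown in continuous light and harvested after 10 days. The labels name neither the alleles nor the number of plants per library, and they do not say whether replicates were separate cultures, so p-values measure the spread between libraries, which may be technical. The HYL1 and SE transcripts themselves are not measured by this assay.

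A plant primary miRNA transcript folds into a hairpin, and DCL1 cuts it in steps that release a duplex of the miRNA and its opposite strand. HYL1 binds double-stranded RNA beside DCL1, SE (SERRATE) carries a zinc finger, and both are known to make DCL1 cut faster and at more exact places. Most hairpins are cut first near their base and then near their loop. A few, such as MIR159 and MIR319, are cut in the other direction in several steps, and members of the MIR156 and MIR160 families are also cut from the loop. A SPARE tag begins where a 3′ fragment begins, so a tag at the base-proximal end marks the cut below the duplex, and one at the loop-proximal end marks the cut between duplex and loop. Below, positions are given in nt from the base-proximal end in the direction of transcription. That end, 0, is the first base after the strand on the 3′ arm, and the loop-proximal end lies about -21 nt from it.

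Counts of 26 nt or more were 41677 and 82159 in se and 45108 and 25753 in hyl1. The 4 libraries held 656 distinct ends on 74 precursors. Ends were unevenly repeated between libraries. Of 420 ends with at least 20 counts in some library, 296 (70.5%) reached 3 counts in 1 library and 30 reached it in all 4. The summed smaller share over all ends, which is 100% for identical profiles, was 50.5% between the se replicates and 52.2% between the hyl1 replicates. Across genotypes it lay between 32.2% and 34.4%. The shorter of these tags, from 26 to 45 nt, held 12% and 15.2% of the counts in se but 0.321% and 1.97% in hyl1. Most of these short tags in se lay on the precursor MIR169a. It held 6806 and 19695 se counts at 26 nt or more, and 3263 and 9200 at 46 nt or more. In 1 library of each mutant (se replicate 2 and hyl1 replicate 1) the source name does not give the genotype, so differences were also taken within each kind of source name.

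The largest contrast between the mutants lay at the base of the hairpin. Fragments beginning 3′ of the base-proximal end made up 29.1% and 29.8% of counts in se but 6.81% and 13.4% in hyl1. Means were 29.5% ± 0.546 and 10.09% ± 4.63 (SD, n = 2 each), a gap of 19.4 percentage points. Wild type was at 12.2% and 6.28%, so the hyl1 libraries overlapped with wild type and both se libraries lay above it. The base-proximal end itself held 28.9% and 26.7% in se and 45.9% and 40.6% in hyl1, a difference of -15.5 points. Wild type held 43.0% and 45.8% there. Neither region overlapped between the mutants. Each gave p = 0.33 in an exact two-sided permutation test, the smallest that 2 libraries against 2 allow. Within the libraries whose source name gives the genotype, the se minus hyl1 difference was 15.7 points 3′ of the base and -11.7 points at the base. In the other pair it was 23.0 and -19.2 points. Short tags moved with this contrast: for tags of 46 nt or more the difference was 7.72 points 3′ of the base and -10.97 points at the base. Without the precursor MIR169a the difference 3′ of the base was 11.1 points. The part of tag length in the contrast was not tested further.

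At the loop-proximal end the 2 mutants overlapped. It held 14.6% and 11.6% of counts in se and 12.3% and 15.1% in hyl1, against 31.9% and 27.6% in wild type. The mutants differed by -0.614 points there (exact permutation p = 0.667), and the sign turned when each precursor weighed equally (2.46 points). Ends anywhere 5′ of that cut held 15.9% and 16.9% in se and 24.3% and 20.1% in hyl1, with 9.33% and 13.7% in wild type. This region takes in the loop, the 5′ arm and sequence before the hairpin. Inside the strand the shares were 11.5% and 15.0% in se, 10.7% and 10.8% in hyl1, and 3.60% and 6.59% in wild type. Both of these regions stood higher in each mutant library than in either wild-type library.

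**Figure D1:**
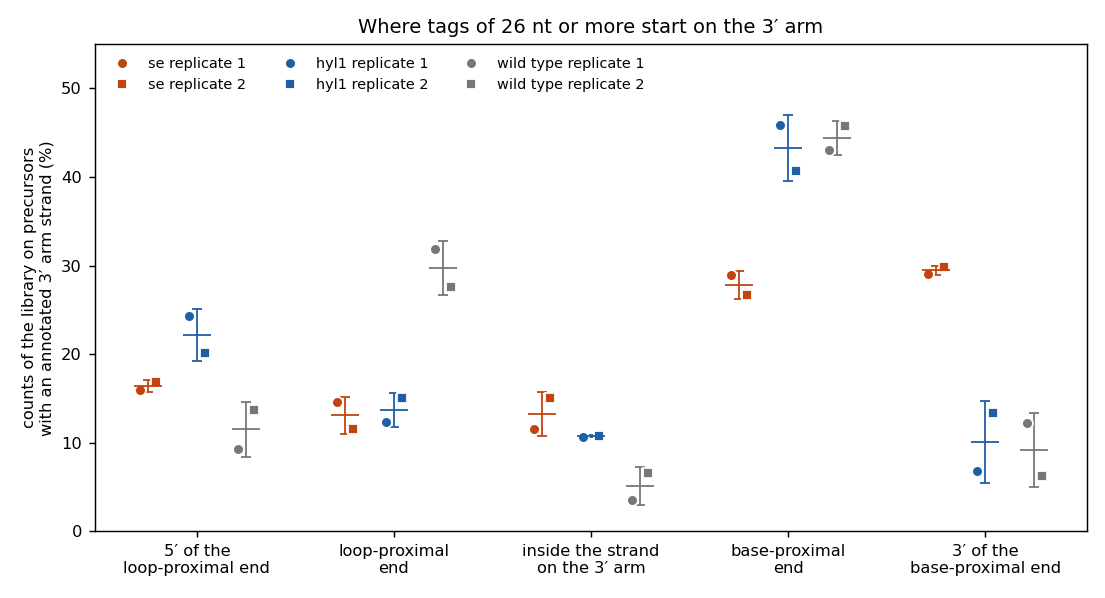
Share of counts (y axis, percent of the counts on precursors with an annotated strand on the 3′ arm) for se, hyl1 and wild type. The x axis is the region relative to that strand, and the first region takes in everything 5′ of the loop-proximal end. Points are libraries, dashes are means and bars are SD (n = 2). The se points lie at 29.1% and 29.8% in the region 3′ of the base-proximal end, above both hyl1 and both wild-type points, and below them at the base-proximal end.

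Both mutants used the same precursors for the most part. With at least 3 counts in both libraries as the mark of use, se used 38 precursors and hyl1 31, and 29 were used by both (76.3% of the se list and 93.5% of the hyl1 list). Some sat at this limit, such as MIR157a with 3 counts in se replicate 1 and MIR400 with 3 in hyl1 replicate 2. At the level of single ends, 88 were used in se and 47 in hyl1, and 30 were shared (34.1% of the se list and 63.8% of the hyl1 list). Those 30 ends, on 17 precursors, held 45.3% and 45.5% of se counts and 63.9% and 63.1% of hyl1 counts. By place, 15 lay within 1 nt of the base-proximal end and 5 within 1 nt of the loop-proximal end. Another 5 lay 5′ of the loop-proximal end, 3 inside the strand and 2 on the 3′ side. All but 1 lay inside the annotated primary transcript, 25 reached 3 counts in both wild-type libraries, and 29 were shared again for tags of 46 nt or more. All 30 reached 3 counts in both fiery1 libraries, and 23 reached 10 counts in every se and hyl1 library. Most ends with 1 to 3 counts had over 100 counts in a fiery1 library: 80 of 120 and 100 of 144 in se, 55 of 83 and 65 of 85 in hyl1. The cause was not tested.

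The sequences around 6 of the shared ends are shown because these are the cuts that both mutants used. Each window, read 5′ to 3′ from the TAIR10.1 genome, has the 20 bases before the end in lower case and the 20 bases from the end onward in capitals.
MIR398b at 0 nt, chr5:4691108-4691147, plus strand: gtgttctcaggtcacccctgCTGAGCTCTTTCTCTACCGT
MIR165a at 0 nt, chr1:78912-78951, minus strand: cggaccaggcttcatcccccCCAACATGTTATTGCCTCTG
MIR399a at 0 nt, chr1:10227166-10227205, plus strand: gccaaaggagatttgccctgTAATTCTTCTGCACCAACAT
MIR408 at 0 nt, chr2:19319934-19319973, plus strand: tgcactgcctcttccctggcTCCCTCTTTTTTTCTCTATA
MIR156a at -22 nt, chr2:10676472-10676511, minus strand: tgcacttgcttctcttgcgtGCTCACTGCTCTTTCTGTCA
MIR157c at 1 nt, chr3:6244506-6244545, minus strand: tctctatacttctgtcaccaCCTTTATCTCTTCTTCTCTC

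MIR398b gives rise to a miRNA against copper/zinc superoxide dismutases, and it carried the most counted shared end. Its base-proximal end held 3861 and 6695 counts in se and 9749 and 3319 in hyl1. That was 61.9% and 59.9% of the precursor's counts in se and 82.1% and 76.9% in hyl1, so the groups did not overlap, although the difference in usage was not past the threshold (limma adjusted p = 0.604). MIR399a, whose miRNA targets the phosphate regulator PHO2, was read almost entirely at its base-proximal end, with 812 and 1020 counts in se and 775 and 422 in hyl1. MIR165a, whose miRNA targets HD-ZIP III transcription factors, held 546 and 1781 counts at that end in se and 317 and 314 in hyl1. In se replicate 2 a further 24.1% of its counts began 3′ of the base, while the other 3 libraries had at most 1.08% there. MIR408, a copper-responsive precursor, had base-proximal counts of 517 and 754 in se and 1143 and 1258 in hyl1. An end 2 nt further on held 50 and 1059 counts in se and 525 and 676 in hyl1, so it was the most used MIR408 end in se replicate 2. MIR399b, of the same family as MIR399a, began at -2 nt in 99.7% and 99.9% of its se counts and in 83.2% and 54.3% of its hyl1 counts (limma adjusted p = 0.0679).

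MIR156a and MIR157c, whose miRNAs target SPL transcription factors, were cut at the loop-proximal end in both mutants. The MIR156a end at -22 nt held 66 and 650 counts in se and 410 and 956 in hyl1, and the one at -23 nt held 281 and 229 in se and 145 and 333 in hyl1. Its base-proximal region held at most 0.339% of the precursor's counts in any of the 4 libraries, against 21.7% in each wild-type library. MIR157c had counts of 563 and 777 in se and 1426 and 1598 in hyl1 at 1 nt. At -21 nt it had 225 and 627 in se and 1308 and 797 in hyl1. Both MIR157c ends thus had fewer counts in each se library than in each hyl1 library, with no end past the threshold (edgeR adjusted p = 0.282 and 0.341).

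MIR159b, whose miRNA targets MYB transcription factors and whose long hairpin is cut stepwise from the loop, had a ladder of ends in both mutants, with 6 shared ends. Shown are the ladder ends at -71, -50, -21 and 0 nt and the end at -57 nt, which had more counts in hyl1.
MIR159b at -71 nt, chr1:6220743-6220782, plus strand: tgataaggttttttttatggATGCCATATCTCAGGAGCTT
MIR159b at -57 nt, chr1:6220757-6220796, plus strand: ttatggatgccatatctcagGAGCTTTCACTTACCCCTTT
MIR159b at -50 nt, chr1:6220764-6220803, plus strand: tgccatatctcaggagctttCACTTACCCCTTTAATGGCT
MIR159b at -21 nt, chr1:6220793-6220832, plus strand: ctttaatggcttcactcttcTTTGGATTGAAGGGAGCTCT
MIR159b at 0 nt, chr1:6220814-6220853, plus strand: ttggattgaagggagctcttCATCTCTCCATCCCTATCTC

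The loop-proximal end of MIR159b at -21 nt, where miR159b-3p begins, was its most used end in both mutants. It held 1685 and 2752 counts in se and 2514 and 1477 in hyl1, and the groups overlapped as shares of the precursor (33.3% and 37.6% of counts within 1 nt of it in se, 39.7% and 32.6% in hyl1). The ladder end at -50 nt held 398 and 1824 counts in se and 1629 and 538 in hyl1, again with overlap. The outermost one at -71 nt held 70 and 125 counts in se and 302 and 201 in hyl1, and the innermost at 0 nt held 172 and 101 in se and 353 and 518 in hyl1. At both of these the se libraries were the lower ones, without a call (edgeR adjusted p = 0.474 and 0.282). Between these, the end at -57 nt held 6 and 23 counts in se and 442 and 294 in hyl1, and the next base at -56 nt held 0 and 1 in se and 247 and 421 in hyl1. Neither passed the threshold (edgeR adjusted p = 0.273 for each), and wild type held 32 and 379 counts at -57 nt. Fragments 3′ of the base made up 35.0% and 26.1% of MIR159b counts in se, 5.70% and 9.42% in hyl1, and 8.30% and 2.92% in wild type.

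**Figure D2:**
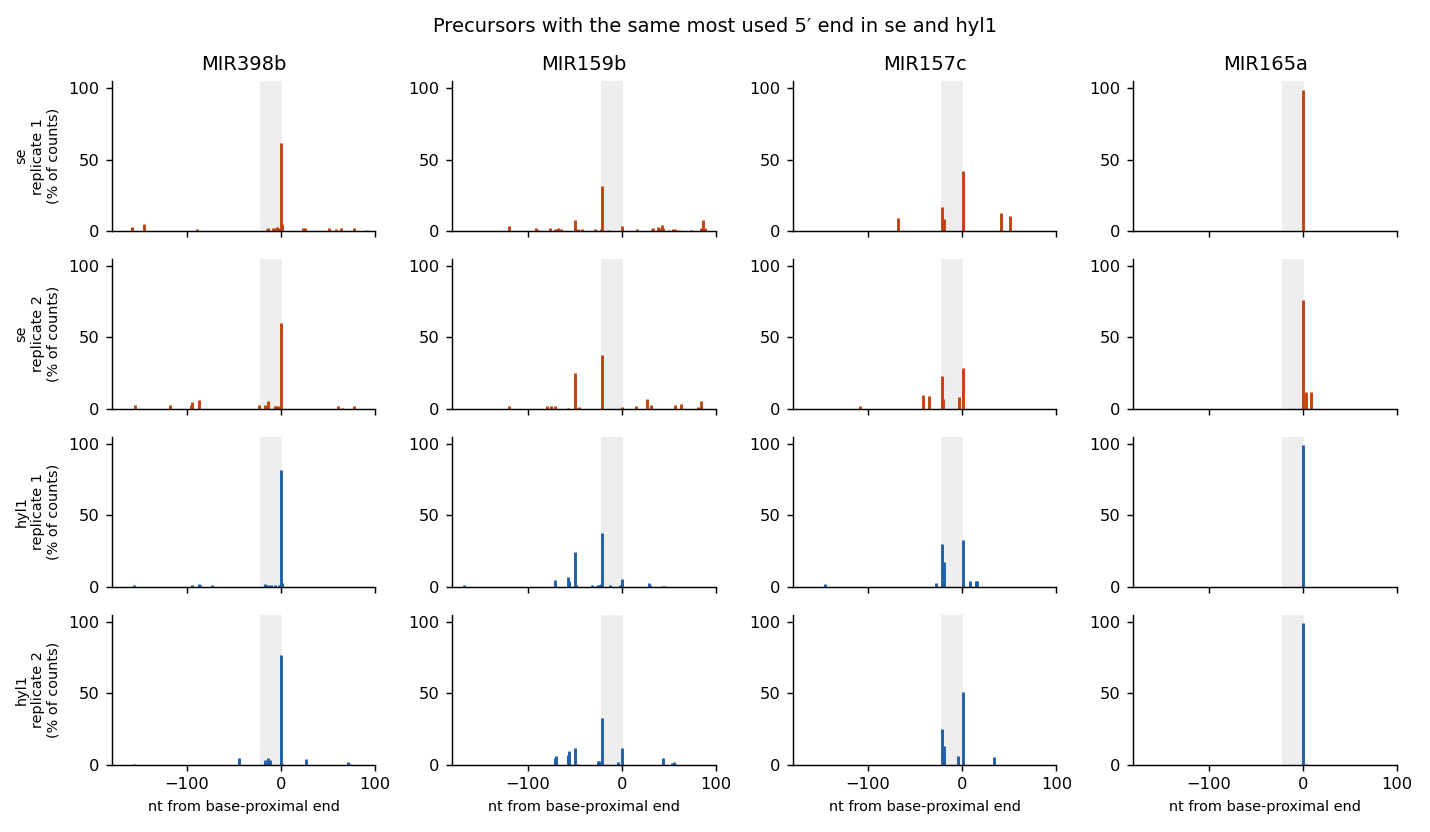
End profiles of 4 precursors with the same most used end in se and hyl1, by the mean share of each genotype's libraries. The x axis is the position in nt from the base-proximal end, the y axis is the percent of the precursor's counts in that library, each row is 1 library and the grey band is the strand on the 3′ arm. MIR398b peaks at 0 nt in all 4 libraries with 59.9% to 82.1% of counts, and MIR159b peaks at -21 nt.

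Across 74 precursors tested, edgeR's quasi-likelihood test called none higher (0%) and none lower (0%) in se than in hyl1 at an adjusted p under 0.05. At an unadjusted p under 0.05 it gave 16, and DESeq2 called 10 higher and 5 lower. The 4 libraries did not overlap in normalised CPM, with se higher, for 18 precursors (24.3%) and with se lower for 14 (18.9%). The filter ran on all 8 libraries, so these are not the same 74 precursors as those with counts above. MIR162b, MIR171a, MIR395f, MIR447a and MIR771 were tested with 0 counts in every se and hyl1 library and could not separate. MIR164c and MIR399d, each with counts in 1 of these libraries, were among those not tested. With only the se and hyl1 libraries, 47 precursors were tested and 0 were called. Among the 74 tested, the median log2 difference was 0.18 under TMM scaling and 0.00077 under DESeq2 size factors. Differences are read against that shift. The 6 precursors with the smallest p are given as values only. MIR169a, the source of a miRNA against NF-YA subunits, held 16.3% and 24.0% of the se libraries and 0.723% and 3.27% of the hyl1 libraries, with wild type at 5.13% and 3.33% (log2 difference 2.90 ± 0.867 SE, edgeR adjusted p = 0.150). The neighbouring pair MIR169l/MIR169k held 470 and 2290 counts in se and 3 and 1 in hyl1, a ratio of 395 with an exact 95% counting interval of 154 to 1450. Wild type held 3 and 949 counts of this pair, so libraries of the same genotype also lay far apart, a spread outside the counting interval. MIR160c, whose miRNA targets auxin response factors, held 186 and 599 counts in se and none in hyl1. This was at least 64.2-fold higher in se against a floor of 3 counts per library. The absence from hyl1 holds only for the tag lengths kept. When every tag length was counted, MIR160c held 270 and 602 counts in se and 1 and 19 in hyl1. Its log2 difference then fell from 13.4 to 1.88 (edgeR adjusted p = 0.460 with every tag length). MIR157c went the other way, with 3.22% and 3.34% of the se libraries and 9.68% and 12.2% of the hyl1 libraries (log2 difference -2.04 ± 0.511 SE, edgeR adjusted p = 0.147). MIR156b had 17 counts in hyl1 replicate 1 and 0 in the other 3 libraries.

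MIR827 (AT3G59884, chr3:22122760-22122936, minus strand), whose miRNA targets the phosphate-response ubiquitin ligase NLA, held 0 and 0 counts in se and 580 and 523 in hyl1, at least 306-fold lower in se. Wild type held 71 and 1. The statement holds for tags of 26 nt or more: when every tag length was counted, the se libraries held 59 and 313 MIR827 counts. One MIR827 end was used in hyl1 and not in se, at -17 nt inside the miRNA strand, with 130 and 207 counts. None of those counts came from tags of 46 nt or more. The window around it is given because no other precursor was used in hyl1 with 0 counts in both se libraries.
MIR827 at -17 nt, chr3:22122808-22122847, minus strand: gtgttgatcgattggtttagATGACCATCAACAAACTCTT

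MIR398b, MIR159b and MIR398c were among the 5 most counted precursors of both mutants. MIR398b held 15.0% and 13.6% of the se libraries and 26.3% and 16.8% of the hyl1 libraries. MIR159b held 12.7% and 8.92% of se and 14.7% and 17.6% of hyl1, and wild type held 30.7% and 27.5%. The MIR398c shares were 9.19% and 6.51% in se and 10.6% and 7.35% in hyl1, which overlapped as shares of the library but not in TMM-normalised CPM, where both se libraries were lower. MIR169a and MIR779 completed the se list, and MIR157c and MIR408 the hyl1 list. MIR779 held 8.21% and 4.35% of se and 1.57% and 1.88% of hyl1, and MIR408 held 2.65% and 4.22% of se and 5.40% and 9.58% of hyl1. The MIR779 difference was positive on the log2 scale, and its sign turned with tags of every length (-1.05) and without its most used end (-0.22), and that of MIR398b (log2 -0.79) turned without its most used end (0.31). Since all precursors share the total of a library, a large share of MIR169a in se lowers the shares of the others.

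**Figure D3:**
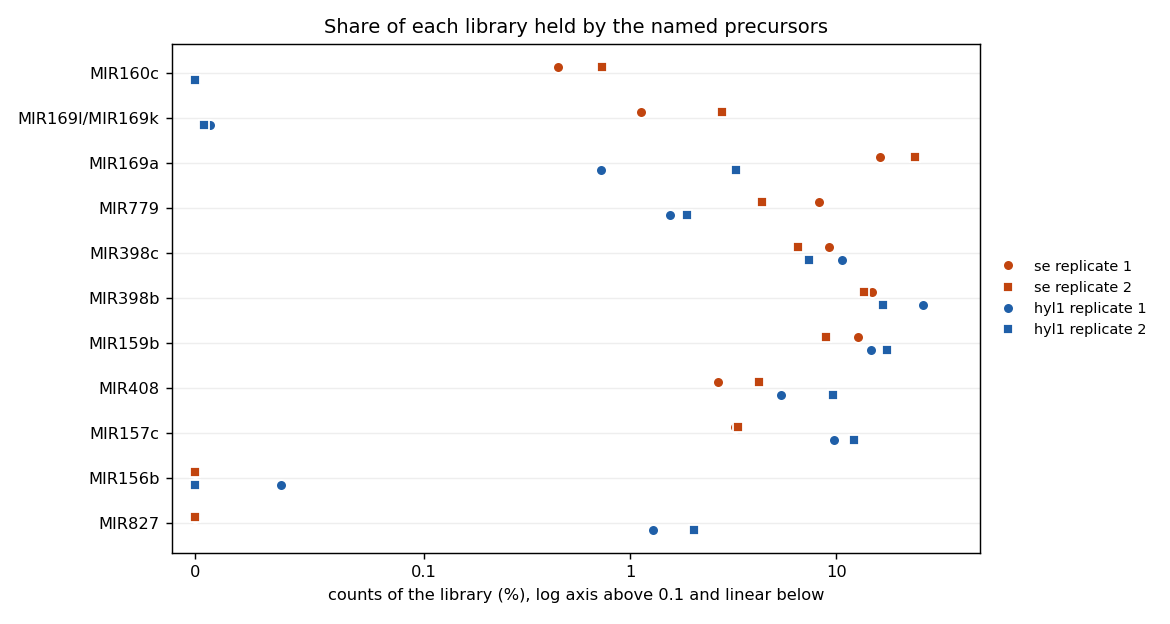
Percent of each library's counts (x axis, logarithmic above 0.1% and linear below) held by the precursors with the smallest p or the most counts. Points are the 4 libraries, with circles for replicate 1 and squares for replicate 2. MIR169a lies at 16.3% and 24.0% in se and at 0.723% and 3.27% in hyl1, and MIR827 lies at 0 in both se libraries.

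MIR169a (AT3G13405, chr3:4358994-4359219, minus strand, TAIR10.1) also differed in its ends. Its base-proximal cut, read at 1 nt, held 1982 and 5397 counts in se and 315 and 548 in hyl1. As a share of the precursor this was 29.1% and 27.4% in se and 96.6% and 65.1% in hyl1, with the base-proximal region at 87.6% and 91.4% in wild type. In se, 57.7% and 59.8% of MIR169a counts began 3′ of the base, against 2.76% and 7.96% in hyl1 and 12.4% and 8.52% in wild type. These counts were spread over 17 and 22 ends of at least 10 counts in se, against 0 and 1 in hyl1. The windows show the base-proximal cut of MIR169a and 1 end on each side of it.
MIR169a at -11 nt, chr3:4359002-4359041, minus strand: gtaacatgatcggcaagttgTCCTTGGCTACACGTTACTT
MIR169a at 1 nt, chr3:4358990-4359029, minus strand: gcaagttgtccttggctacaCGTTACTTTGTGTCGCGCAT
MIR169a at 49 nt, chr3:4358942-4358981, minus strand: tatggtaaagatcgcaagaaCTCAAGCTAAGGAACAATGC

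The most used of the 3′ ends, at 49 nt and 33 nt past the annotated end of the MIR169a transcript, held 1930 and 5828 counts in se and 5 and 57 in hyl1. Every tag at this end was 26 nt long, the shortest length kept, so the end sits on the edge of the length limit. Of the MIR169a counts 3′ of the base, 90.2% and 89.0% in se came from tags of 26 to 45 nt. For tags of 46 nt or more, the share 3′ of the base was 11.7% and 14.02% in se and 0.627% and 0.177% in hyl1, while the base-proximal share was 60.7% and 58.7% in se and 98.7% and 59.6% in hyl1. The other named ends of this stretch, at 48, 39 and 37 nt, held 185 and 977, 175 and 376, and 159 and 379 counts in se and 0 in both hyl1 libraries, and these too came from short tags. The end at 24 nt held 201 and 291 counts in se and 0 in hyl1, all from tags of 46 nt or more. On the other side of the cut, the end at -11 nt inside miR169a-3p held 323 and 1402 counts in se, 0 in hyl1 and 0 and 2 in wild type, at least 136-fold higher in se, again from tags of 46 nt or more. For MIR169a as a whole, tags of 46 nt or more held 8.90% and 13.2% of the se libraries and 0.709% and 2.23% of the hyl1 libraries.

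Usage of ends within their precursor was tested at 98 ends, and limma called none higher (0%) and 2 lower in se (2.04%). Libraries did not overlap at 17 ends with se higher (17.3%) and at 15 with se lower (15.3%). Both calls concerned an end that was present in hyl1 and nearly absent from se at that exact base. The first lay on MIR779, a young MIRNA, and the second on MIR166b, whose miRNA shares its targets with that of MIR165a. Neither call was kept when ends within 1 nt were merged (limma adjusted p = 0.287 and 0.33) or when the source name was a term in the fit (limma adjusted p = 0.0573 for each). Leaving out 1 library, which also lengthens or shortens the list of ends tested, gave 12 to 17 calls.

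MIR779 (AT2G22496, chr2:9560761-9560923, plus strand) was read mainly at the loop-proximal end in se and mainly upstream of it in hyl1. In hyl1, 56.5% and 57.1% of its counts began anywhere 5′ of that end, against 4.94% and 4.76% in se. The end at -21 nt, where miR779.2 begins, held 2808 and 3074 counts in se and 143 and 203 in hyl1, which was 82.1% and 86.1% of the precursor in se and 20.3% and 41.9% in hyl1. Wild type was at 1959 and 3295 counts, 69.0% and 72.8% of the precursor. As an abundance, this end had the smallest adjusted p of the 360 ends tested along with a MIR166b end (log2 difference 3.93 ± 0.706 SE, edgeR adjusted p = 0.102). The called end lay at -532 nt, 406 nt 5′ of the annotated MIR779 transcript, and held 2 and 0 counts in se and 394 and 150 in hyl1. That was 43.4% ± 17.6 of the precursor in hyl1 and 0.0292% ± 0.0414 in se (SD, n = 2 each; limma adjusted p = 0.0307). Wild type held 0 in both libraries. At the next base, -531 nt, se replicate 1 held 167 counts and wild-type replicate 2 held 293, and both hyl1 libraries held 0. An end at -351 nt was used in hyl1 alone, with 5 and 127 counts.
MIR779 at -21 nt, chr2:9560846-9560885, plus strand: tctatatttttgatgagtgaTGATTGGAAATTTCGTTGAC
MIR779 at -532 nt, chr2:9560335-9560374, plus strand: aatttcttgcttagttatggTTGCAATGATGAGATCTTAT

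MIR166b (AT3G61897, chr3:22922206-22922325, plus strand) had its main end at 0 nt in hyl1 and elsewhere in se. Its base-proximal end at 0 nt held 1 and 2 counts in se and 576 and 423 in hyl1, with 1181 and 907 in wild type. That was 0.901% and 0.797% of the precursor in se and 100% in both hyl1 libraries (limma adjusted p = 0.0499, just under the threshold). The 2 se libraries did not share a replacement. In se replicate 1, 110 of 111 counts began at -17 nt, inside the miRNA strand, and in se replicate 2, 249 of 251 began at -1 nt, which wild-type replicate 2 also used (223 counts). Leaving out any 1 of the 4 libraries gave limma adjusted p-values between 0.0506 and 0.0565, so the call was lost each time.
MIR166b at -17 nt, chr3:22922285-22922324, plus strand: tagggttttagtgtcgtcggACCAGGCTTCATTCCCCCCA
MIR166b at -1 nt, chr3:22922301-22922340, plus strand: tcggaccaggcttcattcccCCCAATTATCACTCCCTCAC
MIR166b at 0 nt, chr3:22922302-22922341, plus strand: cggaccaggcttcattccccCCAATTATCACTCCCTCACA

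MIR156c (AT4G31877, chr4:15415418-15415521, minus strand), of the SPL-targeting family, had different ends in the 2 mutants. Its total was 758 and 2251 counts in se and 697 and 316 in hyl1, which was 1.82% and 2.74% of the se libraries and 1.55% and 1.23% of the hyl1 libraries (log2 difference 0.54 ± 0.654 SE, edgeR adjusted p = 0.703). The end at 80 nt, 73 nt 3′ of the annotated transcript, held 375 and 315 counts in se and 2 and 1 in hyl1, a ratio of 132 with an exact 95% counting interval of 44.8 to 640. Wild type held 246 and 290 counts there, in counts near those of se. At -22 nt, the loop-proximal end, the counts were 0 in both se libraries and 100 and 109 in hyl1, at least 59.4-fold lower in se, and 0 and 113 in wild type. An end at -172 nt held 77 and 155 counts in se and 0 in hyl1 and wild type (limma adjusted p for usage = 0.0679). Neither the abundance at 80 nt (edgeR adjusted p = 0.144) nor its usage (limma adjusted p = 0.0733) passed the threshold.
MIR156c at -22 nt, chr4:15415428-15415467, minus strand: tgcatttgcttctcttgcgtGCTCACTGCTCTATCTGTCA
MIR156c at 80 nt, chr4:15415326-15415365, minus strand: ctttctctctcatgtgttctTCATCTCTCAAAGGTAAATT

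**Figure D4:**
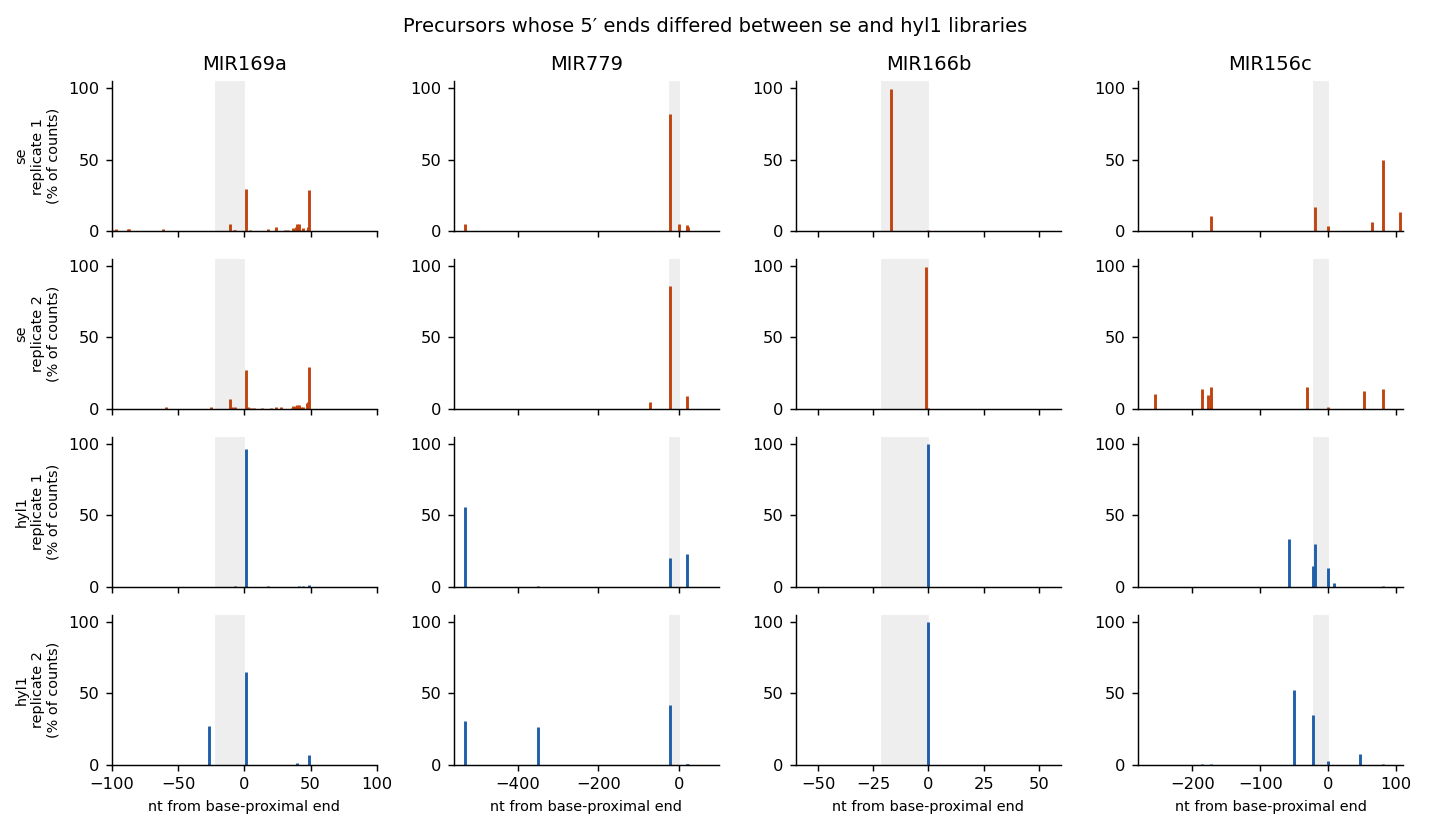
End profiles of MIR169a, MIR779, MIR166b and MIR156c, 4 precursors whose ends differed between se and hyl1 libraries. Axes, rows and grey band are as in the plot of precursors with a common main end: position in nt from the base-proximal end against percent of the precursor's counts, 1 library per row. MIR169a has its extra peak at 49 nt in both se libraries (28.4% and 29.6%), and MIR166b peaks at 0 nt in both hyl1 libraries and at -17 or -1 nt in se.

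Across the 360 ends tested for abundance, edgeR called none higher (0%) and none lower (0%) in se, with 65 at an unadjusted p under 0.05, and DESeq2 called 73 higher and 25 lower. The libraries did not overlap at 79 ends with se higher (21.9%) and at 28 with se lower (7.78%). Here too the filter ran on all 8 libraries. With only the se and hyl1 libraries, 111 ends were tested and 0 were called. Ends used in se with no count in hyl1 numbered 21, on 8 precursors, and held 7.85% and 8.14% of se counts. By place, 14 of these 21 lay 3′ of the base-proximal end, as did 2 of the 30 shared ends and 37.7% of all 656 ends, a difference that was not tested. For tags of 46 nt or more 13 of the 21 were found again. That limit drops some ends whole: those of MIR169a at 48, 39 and 37 nt and of MIR398b at 77 nt had 0 such tags in any library of the series. For such ends the limit is thus no separate check. The annotated transcript ended before 13 of the 21 ends, 16 reached 3 counts in both fiery1 libraries, and 1 did so in both wild-type libraries. MIR169a contributed 9 of them, MIR159b 4 and MIR398c 3. MIR398c had 247 and 248 counts in se at 58 nt, all from tags of 46 nt or more, and MIR398b had 119 and 238 at 77 nt, all from tags of 26 to 45 nt. A single end of the neighbouring pair MIR169n/MIR169m held 475 and 493 counts in se. Wild type held 0 and 219 counts at this end, 0 and 145 at the MIR398c end, and 0 and 0 at the MIR398b end. At the equal depth of 25753 counts the number of distinct ends was 296 and 243 in se and 213 and 180 in hyl1 (270 ± 37.3 and 197 ± 23.5, SD, n = 2 each, exact permutation p = 0.33, the smallest possible).

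Ends used in hyl1 with no count in se numbered 5, each on another precursor, and held 1.02% and 2.22% of hyl1 counts. None of them lay 3′ of the base: 3 began 5′ of the loop-proximal end, 1 was loop-proximal and 1 lay inside the strand. Of the 5, the 2 on MIR779 and MIR398b lay before the start of the annotated transcript. They were the MIR827, MIR156c and MIR779 ends given above, an end of MIR159b at -25 nt with 66 and 122 counts, and an end of MIR398b at -156 nt with 157 and 7 counts. Depth limits such lists, since the se libraries held more counts in all, and 1 count in the other mutant removes an end from them.

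By the mean share of a genotype's 2 libraries, MIR396b and MIR398c had main ends that lay within 1 and 4 nt of each other in the mutants. Single libraries departed from these mean profiles. MIR396b, whose miRNA targets growth-regulating factors, began at -12 nt in 1120 and 2916 counts of se. In hyl1 that end held 268 and 1 counts. The end 1 nt before it, at -13 nt, held 0 and 228 counts in se and 0 and 117 in hyl1, and it was the main end of hyl1 by mean share (37.0%). The base-proximal end of MIR396b held 1 and 0 counts in se and 335 and 0 in hyl1, above both of those ends in hyl1 replicate 1. The MIR396b profiles of the 2 hyl1 libraries overlapped by only 0.633%. MIR398c had its main se end by mean share at -88 nt, with 890 and 445 counts in se and 631 and 0 in hyl1. In se replicate 2 the MIR398c ends at -84 and -7 nt, given next, each held more counts than that. Its main hyl1 end lay at -84 nt, with 386 and 521 counts in se and 2546 and 471 in hyl1, which was 10.08% and 9.74% of the precursor in se and 53.3% and 24.9% in hyl1. Its end at -7 nt held 100 and 546 counts in se and 1 and 0 in hyl1 (limma adjusted p for usage = 0.0679).
MIR396b at -12 nt, chr5:13611893-13611932, plus strand: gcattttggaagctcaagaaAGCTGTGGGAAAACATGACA
MIR398c at -84 nt, chr5:4694695-4694734, plus strand: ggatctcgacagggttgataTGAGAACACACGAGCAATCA

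Profiles were compared for the 20 precursors whose counts reached 20 in every se and hyl1 library. Their median overlap was 43.0% between the mutants, 44.8% between the se replicates and 67.1% between the hyl1 replicates. By the mean share of a genotype's 2 libraries, the most used end was the same base in 11 of the 20 and within 1 nt in 13. Single libraries could depart from it. MIR167a, among the 11, had 85.7% of se replicate 1 counts 3′ of the base and 97.6% of hyl1 replicate 1 counts inside the strand. MIR166b, among the 13, had 99.1% of se replicate 1 counts inside the strand. A precursor was set apart where every overlap across genotypes was below both overlaps within a genotype, and 3 precursors met this (15%): MIR156c, MIR169a and MIR779. For MIR169a the overlap was 78.6% within se, 66.6% within hyl1 and 29.9% to 37.0% across. For MIR779 it was 82.5%, 52.5% and 20.7% to 42.5%, and for MIR156c 22.3%, 17.2% and 1.58% to 3.72%. At the other extreme, MIR393b, whose miRNA targets auxin receptors, was read at 1 base in all 4 libraries (100% overlap, with 20 to 101 counts), and MIR399a overlapped by 99.9% to 100% in every pair. MIR165a and MIR399b followed with mean overlaps across genotypes of 87.9% and 68.8%.

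**Figure D5:**
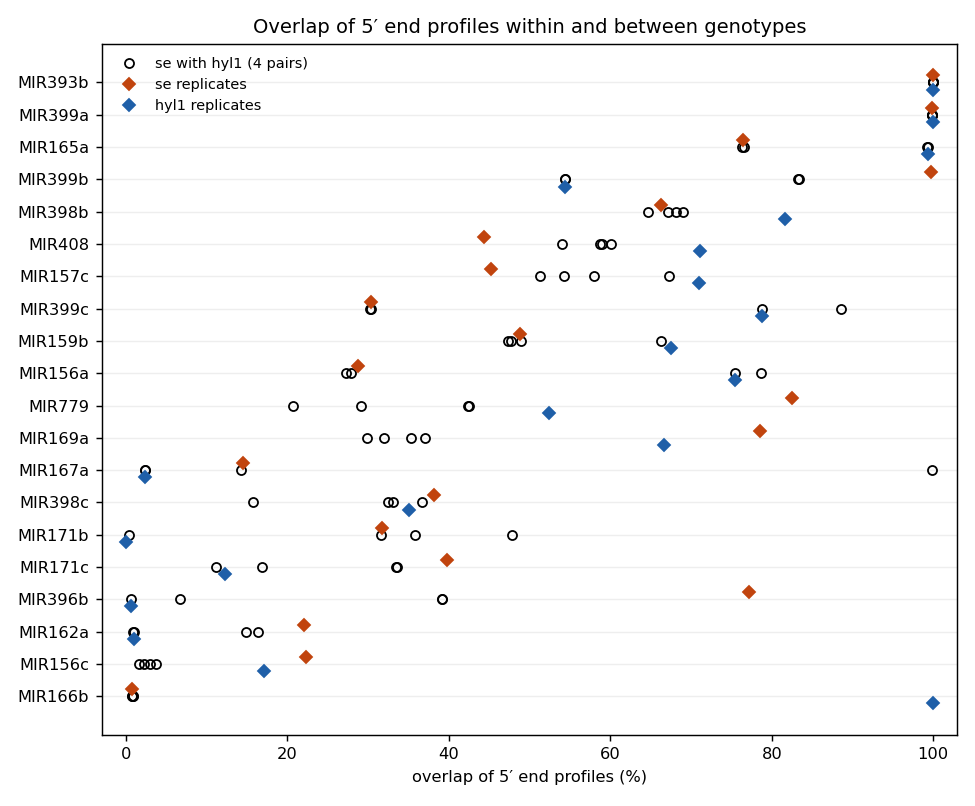
Overlap of end profiles (x axis, percent) for 20 precursors (y axis), with open circles for the 4 pairs of a se and a hyl1 library and diamonds for the replicate pairs. The circles of MIR169a, MIR779 and MIR156c lie left of both diamonds, and those of MIR393b lie at 100%.

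In each region, as placed by the strand on the 3′ arm, the 4 libraries overlapped for most single precursors. Of the 20 precursors, 8 had a higher share 3′ of the base in both se libraries than in both hyl1 libraries and 1 had a lower one, with overlap in 11. The 8 include MIR399a, at 0.123% and 0.0979% in se and 0 in hyl1, and MIR167a, at 85.7% and 0.207% in se and 0 in hyl1. At the base-proximal end 2 were higher in se, 6 lower and 12 overlapped. At the loop-proximal end 3 were higher, 1 was lower and 16 overlapped. The MIR398c share 3′ of the base was 30.6% and 32.9% in se and 1.78% and 10.6% in hyl1, and that of MIR399c, another PHO2-targeting precursor, was 41.2% and 0.505% in se and 0.141% and 0.0968% in hyl1. MIR399b went the other way, with 0 in se and 7.12% and 45.7% in hyl1.

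By family, no list had a called member. Of 7 tested MIR169 precursors, 6 were higher in normalised CPM in both se libraries than in both hyl1 libraries, with a median log2 difference of 8.44 against 0.18 over all 74 precursors. Fold changes of members with no hyl1 count depend on the prior count, so this median is no size. Among the 6, MIR169d held 1 and 487 counts in se and MIR169f held 254 and 1, each with 0 in hyl1. Their place in the count thus rests on 1 count in a se library. Together the MIR169 family held 19.7% and 29.0% of se, 0.734% and 4.45% of hyl1, and 6.22% and 4.30% of wild type. All 3 tested MIR166 precursors were lower in both se libraries (median log2 difference -3.11), with 0.641% and 0.315% of se and 2.12% and 3.05% of hyl1. Among them MIR166f was near the floor, with 0 and 0 counts in se and 2 and 2 in hyl1. Of 3 tested MIR399 precursors 2 were lower in both se libraries, and the family held 5.27% and 4.89% of se and 10.3% and 8.64% of hyl1. The nutrient families, which respond to copper, phosphate and sulfate, had 12 tested members, of which 2 were higher and 6 lower in both se libraries, and they held 32.1% and 29.2% of se and 53.9% and 44.4% of hyl1. The 2 higher ones, MIR395b and MIR397a, held at most 2 counts in a se library.

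The loop-to-base families MIR156, MIR157, MIR159, MIR160, MIR162, MIR171 and MIR319 had 20 tested members, of which 3 were higher and 3 lower in both se libraries (median log2 difference 0.00). That median is the value of MIR162b and MIR171a, which had 0 counts in every se and hyl1 library, so it is no measured level. In total, the loop-to-base families had 19 members with counts in the se and hyl1 libraries. These families held 27.5% and 23.5% of se, 31.2% and 41.9% of hyl1 and 47.1% and 41.0% of wild type. The conserved base-to-loop families had 40 tested members, 12 higher and 9 lower, and held 60.7% and 68.9% of se and 61.7% and 53.4% of hyl1. Development regulators had 45 tested members, 12 higher and 7 lower. The silencing regulators, whose miRNAs target DCL1 and ARGONAUTE transcripts, had 5 tested members, 1 higher and 0 lower, and held 1.87% and 1.32% of se and 0.556% and 0.788% of hyl1. The young families had 12 tested members, 3 higher and 1 lower. Against 24.3% higher and 18.9% lower over all precursors, these counts stand beside the background without a test.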

How the data were processed

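Counts of identical tags with their precursor, position and length were deposited by the authors, with no normalization evident in the values. Cutadapt and TAIR10 are named, without versions, per the submitters' processing notes, while no source used here gives the aligner. From these counts, tags of 26 nt or more were summed by precursor and 5′ end. File entries within 5 nt of each other were merged, turning 111 entries into 108 precursors, which were placed on TAIR10.1 by exact match (99.7% of counts in the 4 libraries). The RefSeq annotation gave the strand on the 3′ arm for 84 precursors, 61 of them with counts. No tag carries a molecular identifier, so intervals and floors cover counting error only.

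For abundance, edgeR 4.0.16 was run (quasi-likelihood, TMM, filterByExpr with a minimum count of 10) on all 8 libraries with 1 term for each genotype. Usage was tested with limma 3.58.1 on logit shares (offset 0.5) for ends with at least 10% of a precursor in a se or hyl1 library, where that precursor had at least 20 counts in each of the 4. P-values were adjusted by Benjamini-Hochberg with a threshold of 0.05, and the models were tested on simulated data. DESeq2 1.42.0 was an alternative. Named items were the 6 smallest p of a test with under 6 calls, the 5 most counted precursors of each mutant, the precursors set apart and the 4 with the highest overlap, up to 8 ends of 1 mutant alone and 6 shared ends. Further members of the same families, and MIR396b, MIR157c and MIR156a ends, were chosen after their values were seen. The comparison, its members and lists were chosen with earlier results of these data known.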

Additional observations from a re-analysis of the deposited data

Results flagged for a closer look

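Tags of 18 to 25 nt, which no comparison above used, were far more frequent in se than in any wild-type library. They made up 86.1% of all counts in se replicate 1 and 83.9% in se replicate 2, against 29.5% in the higher wild-type library and 1.19% and 28.2% in hyl1. The level above wild type is what set these values apart. Their part in the ends 3′ of the base-proximal end was not tested beyond the length limits given above.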

How the results depend on the processing

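The 2 called usage ends and the empty abundance lists depended on the setting. Precursors called numbered 0 as reported, 1 with DESeq2 size factors, 2 with no filter, 15 with DESeq2, 8 with tags of every length, and 1 with tags of 30 nt or more or of 46 nt or more (the last limit was chosen after seeing the data). Ends called numbered 0 as reported, 5 with the replicate block, 6 with DESeq2 size factors, 98 with DESeq2, 13 with tags of every length and 5 with tags of 46 nt or more. Usage calls numbered 2 as reported, 1 with the replicate block, 0 with a source name term, 0 with only the se and hyl1 libraries, 16 with tags of every length, 1 with tags of 30 nt or more, 0 with ends merged within 1 nt and 1 with a minimum of 10 counts. The replicate numbers did not pair the libraries: differences between replicates correlated by 0.020 over 74 precursors, with 2 pairs only. Leaving out 1 library gave 0 to 1 precursors, 0 to 4 ends, 12 to 17 usage calls, 32 to 47 shared ends, 27 to 132 ends of se alone, 7 to 71 of hyl1 alone, 8 to 13 precursors set apart, loop-proximal differences of -2.10 to 0.868 points, base-proximal differences of -18.1 to -12.8 points, and 46.7 to 99.5 more distinct ends in se. These rules ask for both replicates, so leaving 1 out relaxes them. The remaining lone library was taken to vary like the other groups.

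The loop-proximal difference was -9.43 points with tags of every length, 2.46 as a mean over precursors, 4.41 without MIR398b, MIR169a and MIR159b, and 2.62 without MIR169a. The base-proximal difference was -32.9 points with tags of every length, -10.97 for tags of 46 nt or more and -10.96 as a mean over precursors. With tags of every length there were 118 more distinct ends in se, 48 shared ends, 88 ends of se alone and 8 precursors set apart. With tags of 46 nt or more 13 ends of se alone were counted, all among the 21, and with a minimum of 10 counts 3 ends of hyl1 alone. Signs turned for MIR398b (log2 difference 0.31) and MIR779 (-0.22) without their most used end, for MIR779 with tags of every length (-1.05) and for the usage of the MIR399b end at -2 nt with tags of every length (-4.24). The cause was not tested. With DESeq2 size factors the median log2 difference over precursors moved from 0.18 to 0.00077. Depth limits lists of ends: the floor of 3 counts stood for 36.5 to 116 CPM.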
